A study of Homo sapiens with 6 samples.

Results

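The genes described here are the receptors of the EGFR family, their ligands and the feedback inhibitor of the receptors, in 22RV1 cells treated with bruceantin (BCT). The 10 members were taken by name from the 26255 genes of the deposited tables. They comprise the 4 receptor genes EGFR, ERBB2, ERBB3 and ERBB4, the 5 ligand genes AREG, EREG, HBEGF, TGFA and BTC, and ERRFI1. RNA-seq was performed on 3 samples of 22RV1 cells given 10 nM BCT for 24 h and on 3 samples given the vehicle DMSO for 24 h, all in full medium with serum, which itself carries growth factors. 22RV1 is a human castration-resistant prostate cancer (CRPC) cell line, and BCT is a quassinoid, a plant compound. Both groups are of this 1 line, so no other genetic background was compared. Values are FPKM, fragment numbers divided by transcript length and by the mapped reads of the sample, a scale on which the levels of different genes can be set side by side.

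The EGFR family is a set of receptor tyrosine kinases at the cell surface. A ligand bound to EGFR, ERBB3 or ERBB4 brings receptors together in pairs, and the paired kinases signal through RAS and ERK and through PI3K. ERBB2 binds no known ligand and acts as a partner of the others, while ERBB3 has little kinase activity of its own and passes the signal mainly to PI3K. The ligands are made as membrane proteins and are cut free by ADAM proteases. AREG and TGFA bind EGFR, whereas EREG, HBEGF and BTC bind both EGFR and ERBB4. ERRFI1, also called MIG6, is made after receptor activation and blocks the kinase. In epithelia, the prostate included, this family carries growth and survival signals.

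The sequences upstream of the start sites of 5 members are shown first, because AREG, HBEGF, ERRFI1 and EREG had the largest differences between the groups and ERBB2 was the receptor that differed most. Each is the 250 bases before a RefSeq start, printed 5′ to 3′ on the strand of the gene, with matches to the motifs named below in capitals.
AREG: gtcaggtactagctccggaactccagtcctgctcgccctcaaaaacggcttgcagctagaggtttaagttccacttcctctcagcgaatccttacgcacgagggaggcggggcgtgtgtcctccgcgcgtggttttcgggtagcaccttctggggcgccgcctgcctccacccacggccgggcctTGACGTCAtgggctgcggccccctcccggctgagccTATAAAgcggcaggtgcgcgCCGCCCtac
EREG: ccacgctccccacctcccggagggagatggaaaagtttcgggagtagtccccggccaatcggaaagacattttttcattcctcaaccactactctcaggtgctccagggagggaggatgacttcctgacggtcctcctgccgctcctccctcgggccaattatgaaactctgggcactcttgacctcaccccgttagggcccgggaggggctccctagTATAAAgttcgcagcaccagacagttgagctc
HBEGF: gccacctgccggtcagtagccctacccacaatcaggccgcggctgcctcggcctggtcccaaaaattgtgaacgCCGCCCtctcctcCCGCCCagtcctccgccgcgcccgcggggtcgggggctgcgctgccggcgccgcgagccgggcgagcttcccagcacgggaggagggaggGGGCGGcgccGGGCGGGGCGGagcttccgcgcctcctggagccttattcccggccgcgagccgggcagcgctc
ERRFI1: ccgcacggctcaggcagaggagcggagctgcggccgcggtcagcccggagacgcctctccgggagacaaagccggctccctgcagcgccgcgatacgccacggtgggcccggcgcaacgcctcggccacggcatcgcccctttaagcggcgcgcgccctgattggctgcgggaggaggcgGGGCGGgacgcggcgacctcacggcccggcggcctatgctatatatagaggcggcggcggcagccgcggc
ERBB2: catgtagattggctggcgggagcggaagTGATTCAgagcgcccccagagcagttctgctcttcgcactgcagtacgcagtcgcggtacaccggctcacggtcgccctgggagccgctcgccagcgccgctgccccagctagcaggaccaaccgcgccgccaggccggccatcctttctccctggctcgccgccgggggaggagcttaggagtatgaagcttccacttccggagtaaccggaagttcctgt

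On GRCh38.p14 these windows lie at chr4:74444886-74445135 on the plus strand for AREG, chr4:74364895-74365144 on the plus strand for EREG, chr5:140346604-140346853 on the minus strand for HBEGF, chr1:8026310-8026559 on the minus strand for ERRFI1 and chr17:39687844-39688093 on the plus strand for ERBB2. Of the 10 members, 9 matched the RefSeq table by symbol, with 11 start sites in all, as EGFR and TGFA are listed there with more than 1. Start sites that it does not list, for ERBB2 or any other member, were not searched. ERBB3 had no entry. Both strands were searched for the cyclic AMP response element or CRE (TGACGTCA), the AP-1 site (TGANTCA), the E-box (CACGTG), the GC box (GGGCGG), the TATA box (TATAAA) and the EGR site (GCGNGGGCG).

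The AREG window held TGACGTCA, which binds CREB and ATF proteins, 65 bases before the start site, and TATAAA 29 bases before it. TGACGTCA was found in 1.65% of 35116 windows of the same length and TATAAA in 10.7%. Among the 11 windows of the members, only that of AREG held TGACGTCA. The EREG window held TATAAA 32 bases before the start, at nearly the same place as in AREG. The HBEGF window had 5 GC boxes, of which the matches at 63 and 58 bases before the start share a base, in a sequence of 76.4% G and C. The median G and C content of all windows was 58.0%, and 42.6% of them held a GC box. The ERRFI1 window had a single GC box 70 bases before the start. The ERBB2 window had TGATTCA 222 bases before the start, a match to the pattern TGANTCA with T at the open position. That pattern, which was searched with any base at N, was present in 6.57% of windows. A match describes these letters only, and nothing here measured binding.

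The 6 libraries were first compared as wholes. The deposited FPKM of a sample had a sum of 1170000 to 1572000 in the DMSO samples and 757500 to 799800 in the BCT samples, and a single gene, MIR6087, took 43.5% to 55.3% and 31.7% to 32.5% of those sums. A scaling to equal sums therefore moves every other gene, and took the median log2 fold change over the tested genes from -0.04 to 0.72. FPKM gives the depth only relative to another sample, and against DMSO replicate 1 the depth was 0.880 to 1 in the DMSO group and 1.05 to 1.13 in the BCT group. On log2(FPKM + 0.1), samples correlated across genes at 0.959 to 0.972 within a group and at 0.851 to 0.896 between groups. BCT replicate 1 lay nearer to the DMSO samples (0.892 to 0.896) than BCT replicates 2 and 3 did (0.851 to 0.857). All 8 luminal prostate epithelial markers averaged 1 FPKM or more, and their summed level was 859 to 866 FPKM with DMSO and 1834 to 2009 FPKM with BCT. None of the 3 basal epithelial and none of the 3 endothelial markers reached that mean, and no single value of either list exceeded 0.237 FPKM. Of the 3 fibroblast markers COL1A1 alone reached it, and the summed level of the list was 1.499 to 1.592 FPKM with DMSO and 5.19 to 6.41 FPKM with BCT, with COL1A2 and DCN at no more than 0.177 FPKM. Of the 3 leukocyte markers CD68 alone reached it, and that list summed to 2.08 to 3.16 FPKM and 4.99 to 8.27 FPKM, with PTPRC and CD3E at no more than 0.067 FPKM. The part of these genes in the results that follow was not tested. In bulk RNA, a change in the share of cells that express a gene and a change in the RNA of each cell cannot be told apart.

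Of the 10 members, 8 averaged 1 FPKM or more across the 6 samples and were tested with limma among 12729 genes. A gene was called at an absolute log2 fold change above 0.85 with an adjusted p below 0.05. BCT treatment raised 5 of the 8, namely AREG, HBEGF, ERRFI1, TGFA and ERBB2, and lowered none. Among all genes tested, 13.9% were called higher and 17.8% lower. The median log2 fold change was 1.11 over the 8 members and -0.04 over all genes. AREG and TGFA passed the filter on low values only through their BCT level, as their mean with DMSO was below 1 FPKM. The 2 groups of samples were fully separate for 7 of the 8 tested members, where 85.3% of all genes tested were so.

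**Figure D1:**
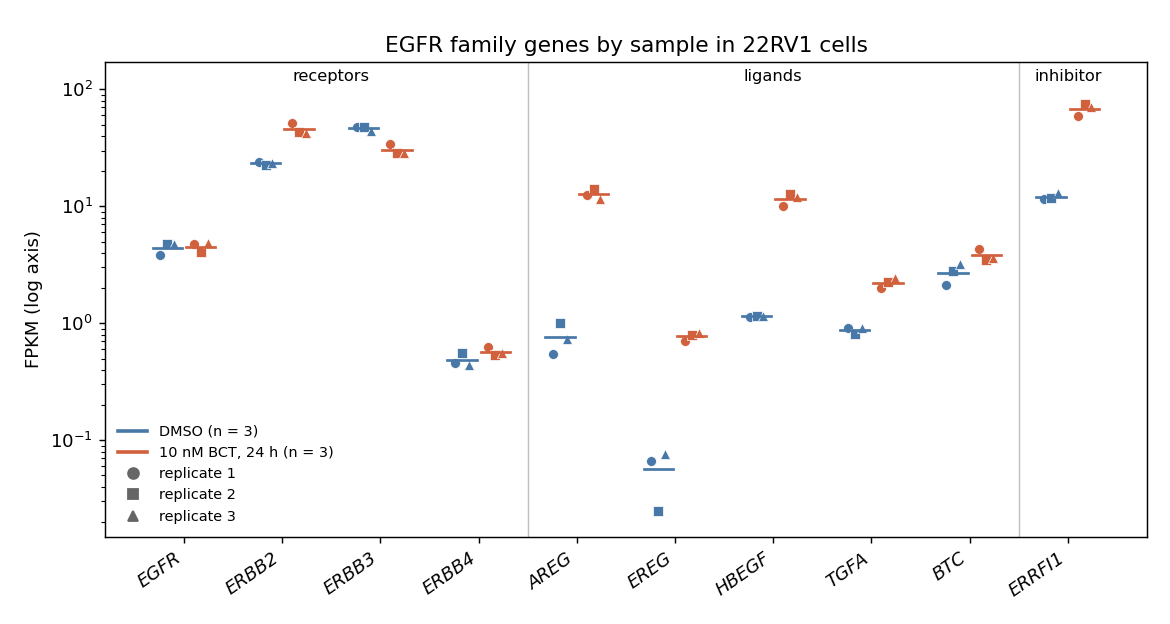
FPKM on a log axis for the 10 genes, with each point a sample, its shape the replicate number and the short lines the group means (3 DMSO samples in blue, 3 BCT samples in orange). AREG lay at 0.547 to 1.004 FPKM in the DMSO samples and at 11.6 to 14.0 FPKM in the BCT samples, while the EGFR points of the groups overlapped.

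Of the 3 receptor genes tested, ERBB2 was called higher, and ERBB3 and EGFR were not called. ERBB2, the receptor without a ligand of its own, was at 23.7, 22.7 and 23.4 FPKM in DMSO replicates 1 to 3 and at 51.8, 42.8 and 42.6 FPKM in BCT replicates 1 to 3. Every BCT sample was above every DMSO sample, with BCT replicate 1 the highest. ERBB2 rose by 0.97 on the log2 scale (SE 0.08, 95% interval 0.78 to 1.15, limma adjusted p = 8.1e-06). Its interval includes the threshold, and without BCT replicate 1 the change was 0.87.

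ERBB3, the receptor with little kinase activity, was at 47.7, 47.7 and 43.7 FPKM in the DMSO samples and at 34.3, 28.6 and 28.4 FPKM in the BCT samples. All 3 BCT samples were below all 3 DMSO samples, and again BCT replicate 1 was the highest of its group. The log2 fold change was -0.61 (SE 0.08, 95% interval -0.80 to -0.42, limma adjusted p = 1.4e-04), which is short of the fold threshold, and it turned to 0.16 when samples were rescaled to equal sums. Relative to the median of all genes under the same scaling, ERBB3 lay between -0.58 and -0.56 in each of the 5 scalings.

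EGFR, the receptor of all 5 ligands, was at 3.83, 4.73 and 4.77 FPKM in the DMSO samples and at 4.73, 4.06 and 4.81 FPKM in the BCT samples. The groups overlapped, and the log2 fold change was 0.03 (SE 0.11, limma adjusted p = 0.80). The 95% interval of -0.22 to 0.28 does not reach the fold threshold in either direction. EGFR was at 0.78 (limma adjusted p = 1.6e-05) with samples rescaled to equal sums and at 0.41 (limma adjusted p = 0.010) with MIR6087 left out of the sums, both still short of that threshold, and at -0.07 to 0.11 when single samples were left out. ERBB4, a receptor for neuregulins and for some EGFR ligands, was listed at 0.458, 0.559 and 0.437 FPKM in the DMSO samples and at 0.626, 0.537 and 0.552 FPKM in the BCT samples. It was under the filter and was not tested, and its groups overlapped.

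The change of ERBB2 against ERBB3 can be read within each sample, where any scaling cancels. The ratio of ERBB2 to ERBB3 was 0.497, 0.476 and 0.536 with DMSO and 1.509, 1.497 and 1.499 with BCT, a mean of 0.503 ± 0.031 (SD, n = 3) against 1.502 ± 0.0062 (SD, n = 3). ERBB3 was thus the more abundant transcript in every DMSO sample and ERBB2 in every BCT sample, and the BCT replicates, which differed in each gene, hardly differed in the ratio. The exact permutation test gave p = 0.10 (two-sided), the smallest that 3 samples against 3 allow. This and the other 6 ratios computed were chosen after the values were seen, and each had the same p (0.10 also after adjustment over the 7).

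The 4 receptor genes summed to 75.8, 75.6 and 72.3 FPKM with DMSO and to 91.5, 76.0 and 76.4 FPKM with BCT. BCT replicate 1 was high, whereas BCT replicates 2 and 3 lay within 1 FPKM of the upper DMSO values. ERBB2 made up 31.2% ± 1.20 (SD, n = 3) of the sum with DMSO and 56.2% ± 0.43 (SD, n = 3) with BCT, and ERBB3 made up 62.2% ± 1.5 (SD, n = 3) and 37.5% ± 0.22 (SD, n = 3). The share of EGFR was 5.97% ± 0.81 (SD, n = 3) and 5.60% ± 0.61 (SD, n = 3). These shares are the same under any scaling of a sample, but the total is not. The receptor sum in BCT samples was 1.09 times that in DMSO samples as deposited, 1.84 times with samples rescaled to equal sums and 1.42 times with MIR6087 left out of the sums, settings chosen for the totals after the data were seen.

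The ligand with the largest change was AREG (amphiregulin). AREG was at 0.547, 1.004 and 0.727 FPKM in the DMSO samples and at 12.5, 14.0 and 11.6 FPKM in the BCT samples. The lowest BCT sample was more than 10 FPKM above the highest DMSO sample. The log2 fold change was 3.93 (SE 0.18, 95% interval 3.51 to 4.35, limma adjusted p = 7.8e-07), the 40th largest rise of the 12729 genes. The group means differed 16.8-fold, with a coefficient of variation of 30.3% among the DMSO samples, where the level is low, and 9.60% among the BCT samples.

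HBEGF, a ligand that also serves as the receptor of diphtheria toxin, was at 1.122, 1.165 and 1.162 FPKM in the DMSO samples and at 10.1, 12.7 and 12.0 FPKM in the BCT samples. The 3 DMSO samples were nearly equal, and all 3 BCT samples were far above them. HBEGF rose by 3.22 on the log2 scale (SE 0.10, 95% interval 3.0 to 3.44, limma adjusted p = 2.1e-07), the 77th largest rise, and the group means differed 10.1-fold.

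TGFA, whose product TGF-alpha binds EGFR alone, was at 0.905, 0.812 and 0.915 FPKM in the DMSO samples and at 2.002, 2.234 and 2.435 FPKM in the BCT samples. The groups did not overlap, and TGFA rose by 1.25 on the log2 scale (SE 0.13, 95% interval 0.94 to 1.56, limma adjusted p = 3.7e-05). With a pseudocount of 1 in place of 0.1 the fold change was 0.78 and the call was lost. A larger pseudocount shrinks the fold change of genes at this level.

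EREG (epiregulin) was under the filter on low values and was not tested. It was listed at 0.067, 0.025 and 0.077 FPKM in the DMSO samples and at 0.706, 0.794 and 0.822 FPKM in the BCT samples. The groups did not overlap, and the log2 difference was 2.50. Without the filter EREG passed both thresholds (limma adjusted p = 2.1e-05), although at this level the fold change depends on the pseudocount and ranged from 0.75 to 3.67.

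BTC (betacellulin) had the highest level of the 5 ligands with DMSO, at 2.12, 2.79 and 3.21 FPKM, and was at 4.32, 3.48 and 3.63 FPKM with BCT. The groups were close but did not overlap. The log2 fold change of 0.49 (SE 0.15, 95% interval 0.14 to 0.85, limma adjusted p = 0.017) was short of the fold threshold. It passed that threshold, at 1.23 and 0.87, when samples were rescaled to equal sums with and without MIR6087, settings that move all genes upward.

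The 5 ligand genes together gave 4.76, 5.79 and 6.09 FPKM with DMSO and 29.7, 33.3 and 30.5 FPKM with BCT, a 5.61-fold difference of the means, which was 9.39-fold and 7.33-fold in the same 2 rescalings. AREG and HBEGF made up most of the difference. AREG took 13.6% ± 3.25 (SD, n = 3) of the sum with DMSO and 40.9% ± 2.34 (SD, n = 3) with BCT. HBEGF took 20.9% ± 2.36 (SD, n = 3) and 37.2% ± 2.70 (SD, n = 3). BTC, the leading ligand with DMSO at 48.5% ± 4.11 (SD, n = 3), took 12.3% ± 2.09 (SD, n = 3) with BCT. Within samples, AREG was 0.282 ± 0.070 (SD, n = 3) times the level of BTC with DMSO and 3.38 ± 0.59 (SD, n = 3) times that level with BCT. TGFA took 16.0% and 7.15%, so it rose less than the sum did, and EREG took 1.03% and 2.49%.

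**Figure D2:**
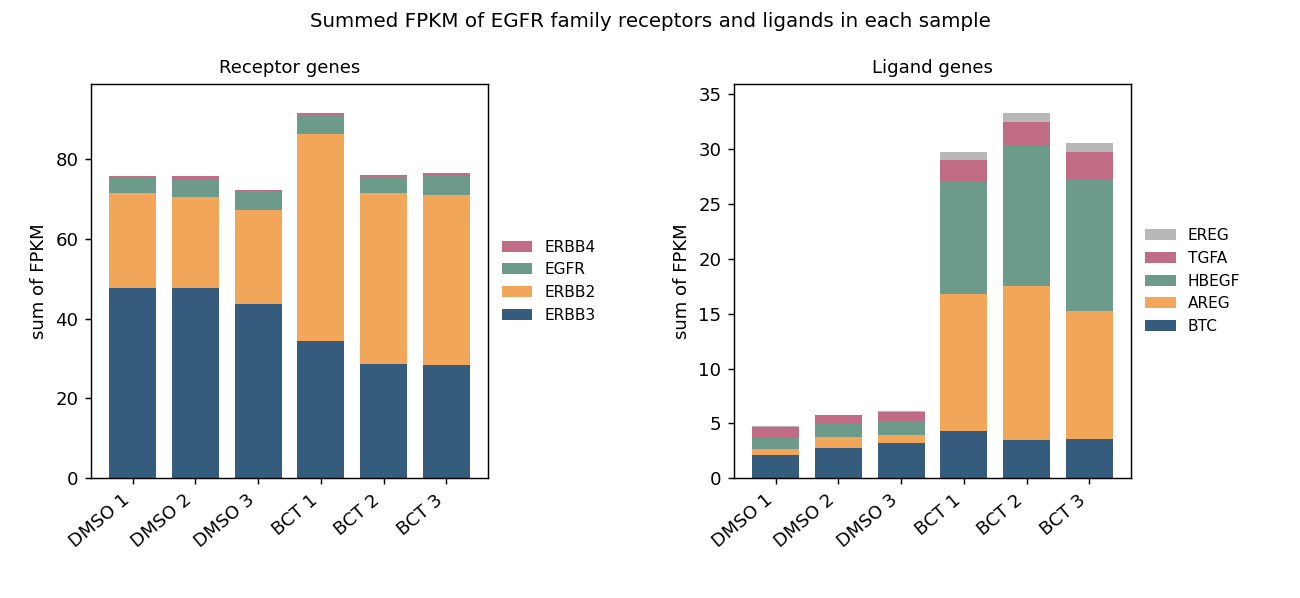
Stacked FPKM of the 4 receptor genes (left) and the 5 ligand genes (right) in each of the 6 samples, with colors for genes and separate axes that both start at 0. The receptor bars are of similar height apart from BCT replicate 1 (91.5 FPKM) but change from mostly ERBB3 to mostly ERBB2, and the ligand bars grow from 4.76 to 6.09 FPKM to 29.7 to 33.3 FPKM through AREG and HBEGF.

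ERRFI1, the inhibitor that binds the kinase domains of EGFR and ERBB2, was at 11.5, 11.8 and 13.0 FPKM in the DMSO samples and at 58.8, 75.4 and 70.2 FPKM in the BCT samples. The groups were widely apart, with BCT replicate 1 the lowest of its group. ERRFI1 rose by 2.48 on the log2 scale (SE 0.09, 95% interval 2.26 to 2.70, limma adjusted p = 4.1e-07), the 147th largest rise. Within samples, ERRFI1 was 2.74 ± 0.25 (SD, n = 3) times the level of EGFR with DMSO and 15.2 ± 3.11 (SD, n = 3) times that level with BCT. The ligand sum was 0.075 ± 0.011 (SD, n = 3) of the receptor sum with DMSO and 0.387 ± 0.058 (SD, n = 3) with BCT.

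**Figure D3:**
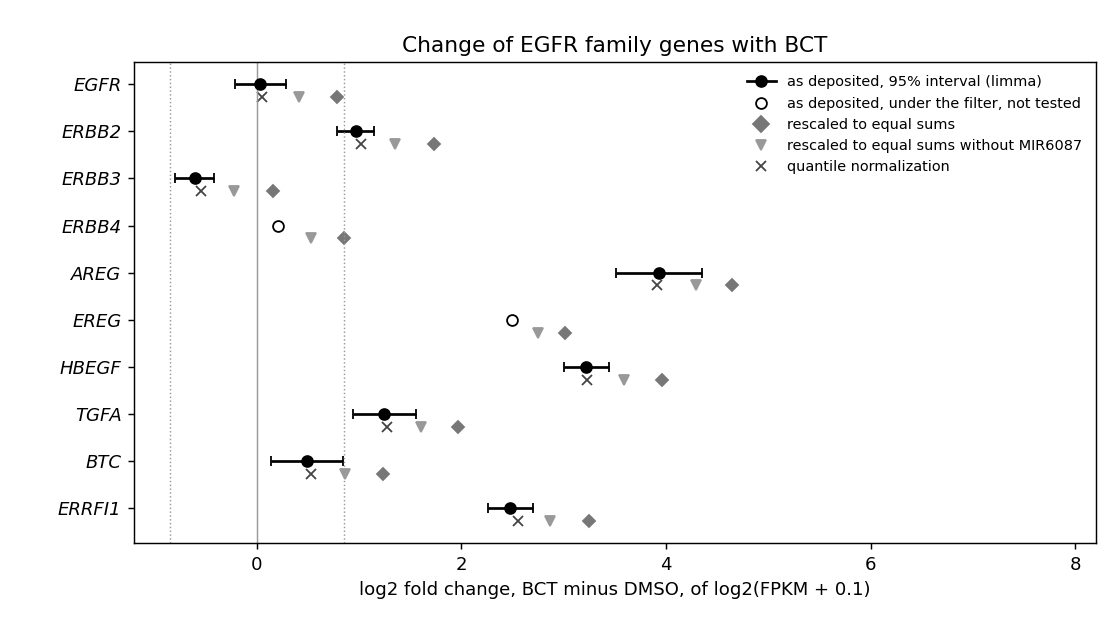
Log2 fold change of each member (BCT minus DMSO, of log2(FPKM + 0.1)), with limma 95% intervals for the 8 tested genes, open circles for ERBB4 and EREG and gray symbols for other scalings, and dotted lines at the fold threshold of 0.85. AREG (3.93), HBEGF (3.22) and ERRFI1 (2.48) stay past the threshold in every scaling drawn, while ERBB3 goes from -0.61 to 0.16 when samples are rescaled to equal sums.

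By level, the order with DMSO was ERBB3, ERBB2, ERRFI1, EGFR, BTC, HBEGF, TGFA, AREG, ERBB4 and EREG, and only TGFA with AREG and AREG with ERBB4 overlapped in range among neighbors. With BCT the order was ERRFI1, ERBB2, ERBB3, AREG, HBEGF, EGFR, BTC, TGFA, EREG and ERBB4, and only AREG with HBEGF and EGFR with BTC overlapped. ERRFI1 was above 76.0% of all annotated genes with DMSO and above 95% with BCT, and AREG went from above 50.5% to above 76.6%. In this list EGFR kept a middle place, above 63.9% and 64.2% of all genes. All 5 calls were made whichever sample was left out, and also with the replicate variance modeled without a trend.

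AREG needs a further remark on position. The deposited table has a single AREG row, at chr4:75480591-75490485 on hg19. GENCODE lifted to GRCh37 has 2 copies there, AREG at chr4:75310853-75320722 and AREGB at chr4:75480629-75490486, and the row lies at the AREGB copy. The upstream sequence shown above occurs on GRCh37 without a mismatch at both places, at chr4:75310603-75310852 and chr4:75480379-75480628. Of 1135 windows of 100 bases in an AREG transcript, 1035 (91.2%) occur in the AREGB transcript. How reads that match both copies were counted is not given in the sources used here, so the FPKM of AREG may hold part of the reads and its level is less certain than that of the other members.

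The remaining members lie, on hg19, at chr7:55086725-55275031 (EGFR), chr17:37844337-37884915 (ERBB2), chr12:56473809-56497291 (ERBB3), chr2:212240442-213403352 (ERBB4), chr5:139712428-139726188 (HBEGF), chr2:70674412-70781147 (TGFA) and chr1:8071779-8086393 (ERRFI1). On chromosome 4, EREG (chr4:75230860-75254477) and BTC (chr4:75671448-75719882) flank AREG. Within 500 kb of these ligand genes lie 11 other genes, of which 2 were tested and none was called. MTHFD2L, a mitochondrial folate enzyme gene, had a mean of 3.45 FPKM with DMSO and 4.77 FPKM with BCT, and PARM1 had 12.8 and 8.93 FPKM. EPGN, a further EGFR ligand beside EREG, was listed at 0.063 to 0.112 FPKM in the DMSO samples and at 0.247 to 0.307 FPKM in the BCT samples. The chemokine gene CXCL2 was under the filter, with 0.049, 0.055 and 0 FPKM with DMSO and 1.02, 1.93 and 2.24 FPKM with BCT. The other untested genes, among them CXCL1, CXCL3, CXCL5, PF4 and PPBP, had no mean above 0.146 FPKM in either group.

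At ERBB2, the next gene on the lower side is PGAP3, at chr17:37827375-37844323 on hg19, which ends just before ERBB2 begins. The ERBB2 upstream sequence shown above lies at chr17:37844097-37844346 on that build. Most of it, with its TGATTCA, thus falls within the listed span of PGAP3. PGAP3, which acts on the lipids of membrane anchors, had 7.18, 7.52 and 7.70 FPKM with DMSO and 3.58, 2.98 and 2.64 FPKM with BCT, the opposite order to ERBB2. PGAP3 fell by 1.27 on the log2 scale (SE 0.11, limma adjusted p = 9.9e-06). MIEN1, on the other side of ERBB2, had a log2 fold change of 0.54 (SE 0.05) and was not called. Of the neighbors of the other members, PFDN1 beside HBEGF (0.70), PARK7 beside ERRFI1 (-0.54), PA2G4 (-0.36) and RPS26 (-0.29) beside ERBB3 and FAM136A beside TGFA (-0.19) were tested, and none of these 5 was called. EGFR-AS1, listed over the same span as EGFR, was at 0.064 to 0.129 FPKM with DMSO and 0.036 to 0.059 FPKM with BCT. The library kit does not mark the strand, so reads of the 2 genes cannot be told apart where they overlap.

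The genes around the family in its pathway were listed in 5 groups, 61 genes in all, of which 52 were tested, 16 were called higher and 3 lower, against 13.9% and 17.8% of all genes tested. None of the 6 other ligand genes passed the filter. EGF was at 0.053 to 0.066 FPKM in the DMSO samples and at 0.058 to 0.076 FPKM in the BCT samples. The neuregulins bind ERBB4, and of these 4 NRG1 and NRG2 also bind ERBB3. NRG1 was listed at 0 in all 3 DMSO samples and at 0.068, 0.135 and 0.196 FPKM with BCT, and NRG2 was at no more than 0.038 FPKM in any sample. NRG3 had 0.527, 0.548 and 0.628 FPKM with DMSO and 0.390, 0.325 and 0.310 FPKM with BCT. NRG4 had 0.199 to 0.211 FPKM with DMSO and 0.094 to 0.144 FPKM with BCT. The ligands present above 1 FPKM were thus members of the list above.

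Of 8 genes that cut ligands free or control the cutting, 6 were tested, none was called higher and 1 was called lower (median log2 fold change -0.05), numbers near the shares of all genes. RHBDF2, or iRhom2, which carries ADAM17 to the surface, had 3.91, 4.46 and 4.35 FPKM with DMSO and 2.56, 1.70 and 1.97 FPKM with BCT. RHBDF2 fell by 1.01 on the log2 scale (SE 0.14, limma adjusted p = 2.1e-04), a call that was lost with a pseudocount of 1, with a mean of at least 5 FPKM required, in a test against the fold threshold itself and when samples were rescaled to equal sums with or without MIR6087. ADAM17, the main protease for AREG, EREG, HBEGF and TGFA, had 10.2, 10.7 and 9.82 FPKM with DMSO and 10.7, 11.6 and 10.9 FPKM with BCT, with groups that overlapped (log2 fold change 0.11). ADAM10, which cuts BTC, had a log2 fold change of -0.36. ADAM12 and ADAM19 were at no more than 0.015 FPKM.

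All 17 adaptors and members of the RAS-ERK core were tested, with 2 called higher, 1 called lower and a median of 0.21. Of all genes tested, 13.9% were called higher and 17.8% lower. BRAF, the kinase that activates MEK, rose by 1.71 (SE 0.12) on the log2 scale, from 7.05 ± 0.39 FPKM to 23.5 ± 3.99 FPKM (SD, n = 3). GRB7, an adaptor of ERBB2, rose by 0.98 (SE 0.07), from 14.6 ± 0.19 FPKM to 28.8 ± 2.64 FPKM (SD, n = 3), and was not called in the test against the fold threshold itself. MAPK3, which encodes ERK1, fell by 0.91 (SE 0.08), from 36.9 ± 2.79 FPKM to 19.5 ± 1.85 FPKM (SD, n = 3), and was no longer called in that test or after either rescaling to equal sums.

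Of 20 genes listed for feedback on the receptors or ERK, 19 were tested, with a median of 0.76. Of these, 9 were called higher and none lower, against 13.9% and 17.8% of all genes tested. The largest changes were in the ERK phosphatase genes DUSP4 (4.55, SE 0.10), DUSP5 (2.80, SE 0.25) and DUSP6 (1.71, SE 0.09). DUSP5, with a mean of 0.456 FPKM in the DMSO group, passed the filter only through its BCT level. SOCS4, just past the fold threshold at 0.86, was not called without DMSO replicate 1, DMSO replicate 3 or BCT replicate 3. Its call was also lost with a pseudocount of 1. In the test against the fold threshold itself, SOCS4 and SPRY4 (0.98) were not called, which left 7 of the 9. SPRED3 was under the filter, at 0.25 to 0.336 FPKM in the DMSO samples and at 0.864 to 1.34 FPKM in the BCT samples. Of 10 genes known to respond to ERK, 5 were called higher and 1 lower, against the same shares of all genes, with a median of 1.34. FOS (4.34, SE 0.17), EGR1 (4.23, SE 0.16) and FOSL1 (3.31, SE 0.30) rose most, and MYC fell by 2.18 on the log2 scale (SE 0.10). FOSL1, with a mean of 0.213 FPKM in the DMSO group, also passed the filter only through its BCT level. ETV5, IER3 and CCND1, from the same list, were not called (0.25, 0.78 and 0.03). Rescaling to equal sums raised the calls over all groups from 16 to 40 higher and lowered those in the other direction from 3 to 1.

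**Figure D4:**
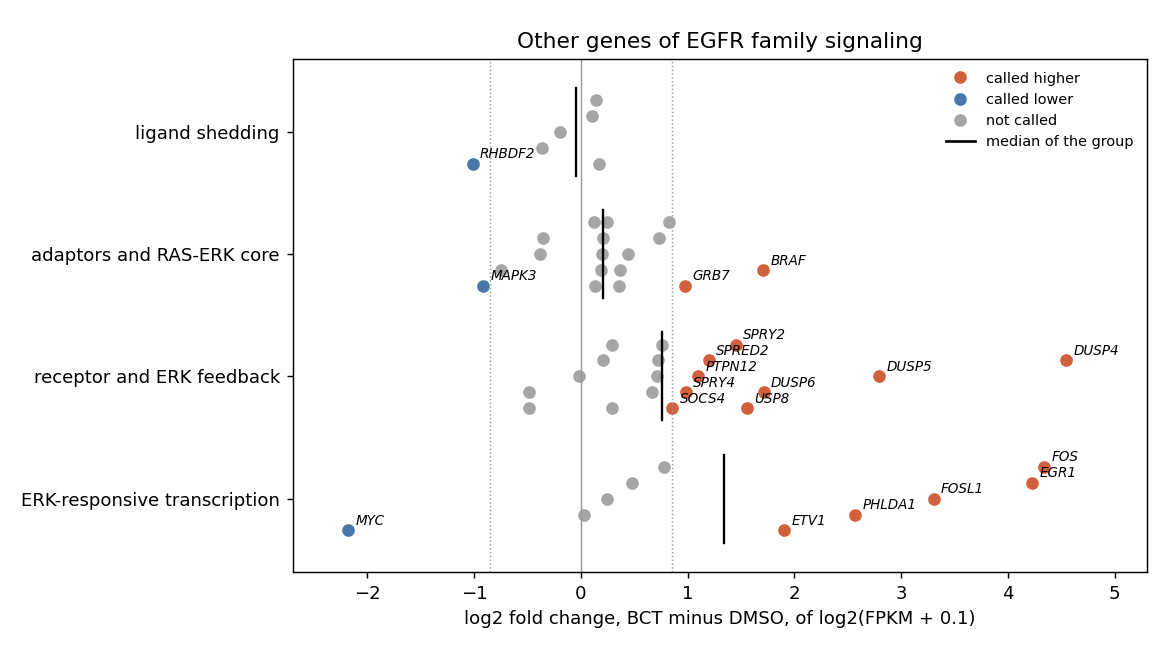
Log2 fold change (BCT minus DMSO, of log2(FPKM + 0.1)) of the 52 tested pathway genes in 4 groups, with each point a gene, called genes colored and named, black lines at the group medians and dotted lines at the fold threshold of 0.85. The genes listed for feedback on the receptors or ERK have 9 calls higher and none lower, while the ligand shedding group has 1 call, RHBDF2 at -1.01. Of all genes tested, 13.9% were called higher and 17.8% lower.

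Among the tested genes, those whose profile over the 6 samples was nearest to that of AREG were MMP10, ELF3 and RASD1. The root mean square difference of log2(FPKM + 0.1), centered on the DMSO mean, was 0.22 for both MMP10 and ELF3 and 0.26 for RASD1. MMP10, a secreted protease gene, had a mean of 0.127 FPKM with DMSO and 3.98 FPKM with BCT. ELF3, an epithelial ETS factor gene, had 19.1 and 281 FPKM, a far higher level than AREG. RASD1, a small GTPase gene, had 0.559 and 7.79 FPKM. Both MMP10 and RASD1 passed the filter on low values only through their BCT level. With DMSO, MMP10 lay near the added 0.1, so its nearness to AREG depends on that constant. The measure rests on these 6 samples in 2 groups.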

How the data were processed

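RNA-seq was performed on 3 DMSO and 3 BCT samples. The libraries were made with a kit that does not mark the strand. The authors trimmed reads with Trimmomatic (0.38 in the submitters' processing notes, which also name HTSeq and CASAVA), aligned them to hg19 with HISAT2 and assembled transcripts with StringTie. They deposited FPKM per gene. The gene annotation is not given in the sources used here. The paper gives an average number of reads per sample, but FPKM holds no counts. The depth of each sample is thus known only relative to the others, and the fragments behind a value are not given. No count test was run.

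The scale log2(FPKM + 0.1), on which changes of low genes are understated, was used for the 12729 genes that averaged 1 FPKM or more. They were tested with limma 3.58.1 in R 4.3.3 (mean-variance trend, Benjamini-Hochberg adjustment over all of them). The fold threshold and the FDR of 0.05 are those of the study's results text, whereas its methods give an FDR of 0.01, which was tried as an alternative. The exact permutation test of ratios used scipy 1.17.1. The fit was tested on simulated data. Nothing states that samples were separate cultures, so p-values measure only the spread between these samples, which may be technical.

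The members and lists were chosen with earlier results of these data known. Named genes are the members, up to 3 called genes per direction and the untested genes of each pathway group, neighboring genes, and the 3 genes nearest in profile to the called member with the largest rise. ADAM17, ADAM10, ETV5, IER3, CCND1, SOCS4 and SPRY4 were named after their values were seen. Starts are given with 1 added to the deposited value. Upstream sequences are from RefSeq (GRCh38.p14). A total of 19 alternative settings were tried.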

Additional observations from a re-analysis of the deposited data

How the results depend on the processing

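Of 173 recomputed values of the members' fold changes, 158 were counted as unchanged. For the tested members this meant the same direction and the same call, whatever the shift in size. EGFR at 0.78 with samples rescaled to equal sums was thus counted as unchanged. For EREG and ERBB4, which were not tested, unchanged meant no call and a shift smaller than the SD between replicates. Settings that alter only the test, such as the FDR of 0.01, could alter a call but not a fold change. ERBB3 turned, to 0.16 (adjusted p = 0.38), with samples rescaled to equal sums. EGFR, at 0.03 with all samples, ranged from -0.0701 to 0.11 when each sample was left out and was below 0 in 3 of them (without DMSO replicate 1, BCT replicate 1 or BCT replicate 3). Equal sums also gave 0.78 for EGFR, 1.23 for BTC, 0.85 for ERBB4 and 3.01 for EREG, 5614 genes called higher and 668 lower, and 40 pathway genes higher and 1 lower. Equal sums without MIR6087 gave 0.41 for EGFR, 0.87 for BTC, 0.53 for ERBB4 and 2.75 for EREG, with 3370 genes higher, 1208 lower and 1 pathway gene lower. Both scalings moved the median of all genes, to 0.72 and 0.34. EREG was 0.75 with a pseudocount of 1 and 3.67 with 0.01, and passed the threshold at 2.50 with no filter. TGFA was 0.78 with a pseudocount of 1. In a limma test against the fold threshold itself, ERBB2 (0.97) was no longer called (adjusted p = 0.36), which left 4 members called higher in place of 5. That test left 1033 genes higher, 1392 lower and 1 pathway gene lower. Genes called higher numbered 2657 with no filter and 1150 with a mean of at least 5 FPKM, since more or fewer genes were tested. Leaving out each sample gave 1684 to 1932 genes higher and 2146 to 2488 lower.

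The groups share replicate numbers. No source used here says that a number marks a shared culture or day, so the numbers were not taken as pairs. Deviations of same-numbered samples correlated at 0.116, 0.033 and 0.034, and those of samples with unlike numbers at -0.115 to 0.074. A fit with the replicate number as a block called 1767 genes higher and 2266 lower, among them all 4027 called without it, and changed no member's call. Count models could not be used on FPKM. Without counts, the precision of low genes such as EREG and ERBB4 is unknown.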
